A study of Mus musculus with 6 samples.

Results

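CD133 knockdown was compared with control in colonies grown from adult mouse pancreas, using 2 libraries with shRNAs against CD133 and 2 control libraries of the 6 in the series. Prom1 encodes CD133. The comparison covered the 10829 genes, of 11164 in the deposited table, whose mean level over the 6 libraries was at least 1 RPKM (reads per kilobase of transcript, scaled to the library's total). The question posed is whether CD133 acts with Glis3 and Wnt in self-renewal of progenitor-like pancreatic cells. The remaining 2 libraries come from colonies with shRNAs against Glis3. Cells sorted for high CD133 and low CD71 from the pancreata of C57Bl/6 mice aged 2 to 4 months were exposed to lentivirus overnight and grown for 3 weeks. The culture was semi-solid, with Matrigel, methylcellulose, serum, conditioned medium, RSPO1, nicotinamide, exendin-4 and activin B, under puromycin.

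All groups share that strain, sort, culture and selection, so RSPO1, a secreted enhancer of Wnt signalling, was present in control and knockdown alike. The control group carried 1 shRNA with no mammalian target (libraries 1 and 3 by their titles). The CD133 group carried a pool of 5 shRNA clones against CD133, and the Glis3 group a pool of 5 against Glis3. The effect of losing CD133 and that of carrying a pool in place of 1 shRNA cannot be told apart against control, and the knockdown leaves part of the Prom1 RNA. Whether a group's 2 libraries are of different animals or culture dishes is not stated in the labels. The p-values then rest on library-to-library spread, which may be technical.

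CD133, or prominin-1, is a glycoprotein with 5 membrane-spanning parts that binds cholesterol and gathers in microvilli and other protrusions of the apical plasma membrane. In the pancreas it lies on the luminal face of duct cells, and it is widely used as a surface marker to sort stem and progenitor cells. Wnt ligands signal through Frizzled receptors and Lrp5 or Lrp6 coreceptors to stabilise beta-catenin, which switches on target genes such as Axin2, Notum and Rnf43 that feed back on the pathway.

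Depth estimated from the values was 25.8 to 29.2 M reads per library. RPKM sums lay between 267688 and 279122. Pearson's r of log2 values across genes, which are not independent replicates, was 0.9951 for the pair of controls, 0.9948 for the CD133 knockdown pair and 0.98 to 0.988 across those groups. CD133 knockdown library 1 lay farther from control than library 3 for most of the gene groups below. Markers of ductal epithelium were measured in nearly full number, 26 of 28, and Krt19, Epcam and Sox9 stood at 432 and 474, 362 and 415 and 33.7 and 31.4 RPKM in the control libraries. Pdx1, a transcription factor of pancreatic progenitors, stood at 10.2 and 10.97 RPKM. Of the markers of other cell types listed, 1 of 26 acinar, 1 of 20 mesenchymal, 1 of 14 endothelial, 2 of 20 immune, 4 of 14 Schwann and neural and 0 of 12 erythroid genes were tested. So were 7 of 32 endocrine and 14 of 30 gastric and mucous genes, the latter summing to 836 and 847 RPKM in the control libraries.

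Prom1, the target of the shRNA pool, fell. The gene (ENSMUSG00000029086.15, GRCm38 chromosome 5: 43993620 to 44102032, minus strand) stood at 191 and 203 RPKM in the control libraries, at 88.03 and 96.00 in the CD133 knockdown and at 221 and 202 in the Glis3 knockdown. Both CD133 knockdown libraries lay under all other libraries. The level was 46.6% of control, or -1.09 as a log2 fold change (adjusted p = 0.00874, 95% confidence interval -1.27 to -0.91). Without control library 1 or 3 the adjusted p was 0.0737 or 0.0597. Glis3, a zinc finger transcription factor, stood at 26.1 and 24.2 RPKM in control and 24.8 and 24.2 in the CD133 knockdown, where the groups overlapped (log2 fold change -0.04, interval -0.20 to 0.13, adjusted p = 0.757).

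In the CD133 knockdown 884 genes rose (8.16% of those tested) and 394 fell (3.64%) at an adjusted p under 0.05, the threshold used throughout. Fold changes are log2 differences of RPKM + 1, which understate the change of genes at low levels, and a gene is said to rise or fall only where it passed. Both knockdown libraries lay above both controls for 4360 genes (40.3%) and below them for 2393 (22.1%). The split between rises and falls depended on the scaling: rises were 69.2% of the calls as deposited, 47.7% with each library centred on its median (559 rose, 612 fell) and 50.4% with quantile normalization (547 rose, 538 fell). The calls depended on single libraries, most of all on each control and on CD133 knockdown library 1. Without control library 1 or control library 3 no gene passed, although at an unadjusted p under 0.05 there were 1670 higher and 774 lower without control library 1, and 1855 higher and 817 lower without control library 3. Without CD133 knockdown library 1, 15 rose and 9 fell, and without library 3, 293 rose and 212 fell. In the gene lists below no member passed with either control library left out, and 3 lists had 1 member past the threshold without CD133 knockdown library 1 (liver-type proteins, mucosal defence and endocrine markers). Of 57 counts of rises or falls in the lists, 39 moved by over 1.5 times without CD133 knockdown library 3, 21 with median centring and 18 with quantile normalization. A replicate block, described in the closing section, moved 50 of the 57. Changes in lists with few calls are not all given below.

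The 15 largest rises ranged from Ces1g at 2.52 to Ecm1 at 1.19 on the log2 scale. Duox2, the dual oxidase that makes hydrogen peroxide at mucosal surfaces (GRCm38 chromosome 2: 122279247 to 122298449, minus strand), stood at 2.25 and 3.13 RPKM in the control libraries and 21.97 and 10.1 in the CD133 knockdown. The knockdown libraries differed from each other by more than the controls did, yet both lay far above them (log2 fold change 2.13, SE 0.37, adjusted p = 0.0216). Ctla2a, related to cysteine protease inhibitors, went from 2.23 and 2.74 to 16.7 and 10.8 RPKM (log2 fold change 2.06, SE 0.21, adjusted p = 0.0111). C4bp, the complement C4 binding protein that restrains complement, went from 1.05 and 1.71 to 11.3 and 6.77 RPKM (log2 fold change 2.05, SE 0.23, adjusted p = 0.0111). In each of these genes library 1 of the knockdown was the highest.

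Vil1 encodes villin, which bundles actin in the core of microvilli (GRCm38 chromosome 1: 74409376 to 74435559, plus strand). Its level was 5.92 and 9.33 RPKM in the control libraries and 31.03 and 20.1 in the CD133 knockdown, with no overlap (log2 fold change 1.62, SE 0.30, adjusted p = 0.024). Ces1g, a carboxylesterase, was barely measured in control, at 0.41 and 0.19 RPKM, and stood at 11 and 3.62 RPKM in the knockdown (log2 fold change 2.52, SE 0.54, adjusted p = 0.0328). Its fold change was 1.15 with a pseudocount of 5 and 4.06 with 0.1, so its size depends on the pseudocount. Clca3b, of the chloride channel accessory family, rose by 1.84, Atg9b, an autophagy membrane protein, by 1.70, and Ndnf, a secreted factor, by 1.62. Ppp2r2c and Ppp1r1b, a subunit of protein phosphatase 2A and an inhibitor of protein phosphatase 1, rose by 1.53 and 1.50.

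The rest of the 15 largest rises were Eps8l3, an actin regulator, at 1.46, the glycosyltransferase B4galnt2 at 1.27, Erdr1 at 1.27, the keratin Krt6a at 1.20 and the extracellular matrix protein Ecm1 at 1.19. Ecm1 was among the more abundant, at 27.9 and 35.7 RPKM in control and 86.5 and 61.8 in the knockdown. B4galnt2 was low but close between libraries of a group, at 0.59 and 0.48 RPKM against 2.80 and 2.61. In the Glis3 knockdown the largest rises, except Ctla2a, Vil1 and Krt6a, also stood above both controls. There B4galnt2 was at 3.76 and 3.53 RPKM and Ces1g at 6.77 and 19.2. Of these 15 rises, 3 still passed without CD133 knockdown library 1 and 13 without library 3. Exons of Vil1, Atg9b and, among the falls, Lims2 overlap those of Usp37, Nos3 and Gpr17 on the opposite strand, and whether counting used strand is not given in the sources used here. Those of Ctla2a and, among the falls, Trf overlap exons of predicted protein-coding loci on the same strand, so their reads can be ambiguous under any strand setting. The same holds for Fdps and Pik3r3 below. Ces1g, Ctla2a, Clca3b, Krt6a and Mup20 have close paralogs with which reads can be shared.

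The 15 largest falls ranged from Pglyrp3 at -1.92 to Lims2 at -1.14 on the log2 scale. Pglyrp3, a secreted bactericidal protein that binds peptidoglycan (GRCm38 chromosome 3: 92014583 to 92031582, plus strand), stood at 35.6 and 32.7 RPKM in control and 6.14 and 11.04 in the CD133 knockdown (log2 fold change -1.92, SE 0.21, adjusted p = 0.0111). Gpx3, the plasma glutathione peroxidase, went from 21.9 and 19.5 to 5.37 and 8.58 RPKM (log2 fold change -1.47, SE 0.23, adjusted p = 0.0191). Mup20, a major urinary protein, went from 44.99 and 42.9 to 16.6 and 14.6 RPKM (log2 fold change -1.44, SE 0.15, adjusted p = 0.0111). For Mup20 the 2 libraries within each group nearly coincide, whereas for Pglyrp3 and Gpx3 knockdown library 3 lay closer to control than library 1. In the Glis3 knockdown Pglyrp3 and Gpx3 also stood under both controls, at 4.48 and 4.41 and at 3.81 and 6.06 RPKM. Mup20 stood above both controls there.

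Among the 15 were plasma proteins that hepatocytes are known to secrete. Hp (haptoglobin) fell by 1.44, Trf (transferrin) by 1.40, Rbp4 (the retinol carrier) by 1.36 and Apcs (serum amyloid P) by 1.33. Rbp4 stood at 28.04 and 26.4 RPKM in control and 8.77 and 11.4 in the knockdown, with no overlap. In the Glis3 knockdown Hp, Trf, Rbp4 and Apcs also stood under both controls, with Rbp4 at 10.4 and 7.83 RPKM. None of them passed in the direct comparison of the knockdowns. Of 10 genes tested in the list of liver-type secreted proteins, 4 fell (Hp, Trf, Rbp4 and Ttr) and none rose (median -0.51, against 0.04 over all genes tested). Over all genes 3.64% fell and 8.16% rose. Ttr (transthyretin) stood at 21.6 and 19.6 RPKM against 10.3 and 12.1 (-0.83), but above both controls in the Glis3 knockdown. The list's median was -0.81 in knockdown library 1 and -0.21 in library 3, and -0.67 and -0.99 in the Glis3 knockdown libraries. Without library 1, 1 gene passed, and without library 3, 6 fell. With the minimum mean raised to 5 RPKM, 2 fell and the median was -0.06. The summed level of the list was 6115 and 6542 RPKM in control and 6289 and 6913 in the knockdown, so the falls are of its less abundant members.

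Among the other large falls, Pdzk1ip1, a membrane protein of epithelia, was the most abundant, at 179 and 159 RPKM in control and 66.6 and 84.7 in the knockdown (-1.16). Tmem178, a membrane protein of the endoplasmic reticulum, fell by 1.44, the flavin monooxygenase Fmo2 by 1.35 and the cytochrome P450 Cyp4b1 by 1.17. Csrnp1, a nuclear protein, fell by 1.31 with controls that differed widely, at 18.7 and 10.6 RPKM. Lims2, a focal adhesion adaptor, fell by 1.14. In the Glis3 knockdown Pdzk1ip1, Tmem178 and Cyp4b1 also stood under both controls, Fmo2 stood above both, and Csrnp1 and Lims2 overlapped control. The remaining 2 of the 15 are counted only. Of the 15 falls, 4 passed without CD133 knockdown library 1 and all 15 without library 3.

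**Figure D1:**
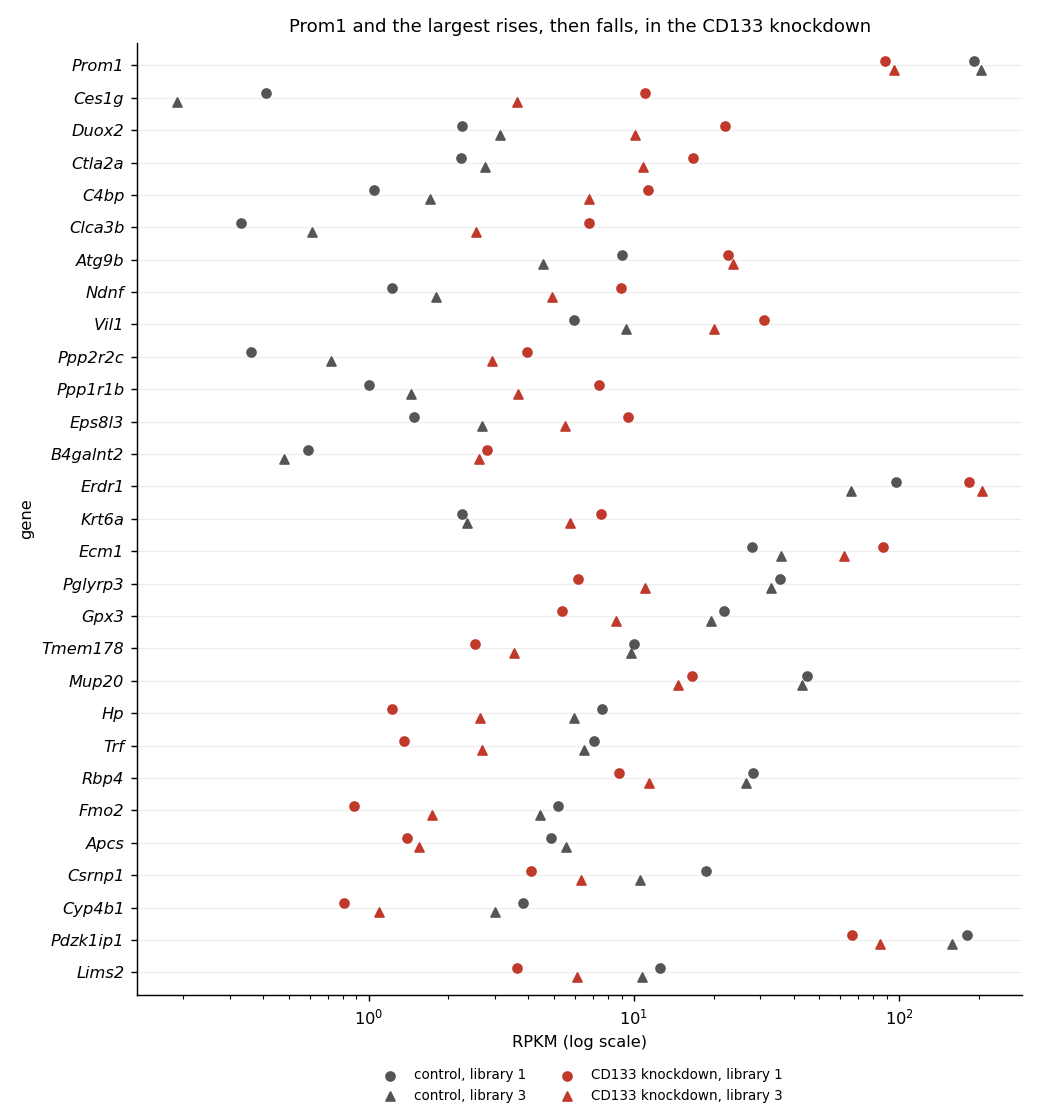
RPKM on a log axis of Prom1, the 15 largest rises and 13 of the 15 largest falls, with a circle for library 1 and a triangle for library 3 of the control (grey) and the CD133 knockdown (red). The choice of genes fixes that both knockdown libraries lie on the same side of both controls; for most genes library 1 of the knockdown is the farther from control.

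Of 38 mitosis genes tested 22 rose, 0 fell and 16 did not pass, and all 38 lay above 0 with no overlap between the groups (median 0.53). Of all 10829 genes tested 8.16% rose, 6648 lay above 0 and 40.3% had both knockdown libraries above both controls. Aurka, the centrosome kinase of mitotic entry, stood at 3.47 and 4.53 RPKM in control and 8.53 and 7.26 in the CD133 knockdown (log2 fold change 0.84, SE 0.13, adjusted p = 0.0193). Ccnb2 (cyclin B2) went from 11.9 and 14.4 to 22.01 and 19.8 RPKM (0.64). The spindle midzone motor Kif23 rose by 0.61, the mitotic entry factor Cdca3 by 0.61, cyclin A2 (Ccna2) by 0.60 and the polo kinase Plk1 by 0.60. The proliferation marker Mki67 stood at 16.6 and 14.2 RPKM in control and 25.3 and 20.04 in the knockdown but did not pass (0.52, adjusted p = 0.178).

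Genes of DNA replication lay higher as well. Of 39 tested 16 rose and 0 fell (median 0.32), where 8.16% and 3.64% of all genes did. All 39 had both knockdown libraries above both controls, as had 40.3% of all genes tested. Rrm2, a subunit of ribonucleotide reductase, stood at 8.88 and 9.27 RPKM in control and 18.8 and 17.6 in the knockdown (log2 fold change 0.93, SE 0.14, adjusted p = 0.0164). Uhrf1, which keeps DNA methylation after replication, rose by 0.71, cyclin E1 (Ccne1) by 0.70, the flap endonuclease Fen1 by 0.59, the transcription factor E2f1 by 0.59 and thymidine kinase (Tk1) by 0.54. Of 19 regulators of entry into the cycle, 2 rose, Ccnd2 (cyclin D2) by 0.65 and the kinase inhibitor Cdkn2c by 0.55. Quantile normalization gave 15 mitosis and 6 replication rises, and median centring 21 and 9. Without CD133 knockdown library 3 the counts were 7 and 5, and none passed without library 1 or either control. The medians were 0.35 and 0.20 with a pseudocount of 5.

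Promoters of these genes are shown because the members of each list that passed did so in 1 direction. In RefSeq promoter sequences (GRCm38.p6, 250 bases before to 50 after a gene's start) 2 motifs known from mitotic promoters were searched on both strands, the CCAAT box (CCAAT) and the cell cycle homology region (TTTGAA). The first was found in 24 of 32 mitosis genes with a promoter and in 37.41% of all 32851 promoters, or 41.06% of all genes with a promoter. The second was found in 25 of 32, in 17.89% of promoters and in 20.23% of genes. E2F site letters (TTTCGCGC, TTTGGCGC or TTTCCCGC) were found in 13 of 31 replication genes and in 1.84% of all promoters, or 2.12% of genes. Matches were counted by motif, also where motifs overlap, and are a description of the letters only. The windows below run from 150 bases before to 50 after the start, 5′ to 3′ along the gene, with the searched letters of the list's own motifs in capitals on either strand. Aurka and Ccnb2 hold the 2 mitotic motifs (chr2:172370521-172370720, minus strand, and chr9:70421505-70421704, minus strand). Mcm5, a subunit of the replicative helicase (9.40 and 9.65 RPKM in control, 14.7 and 13.3 in the knockdown, 0.51), and the DNA ligase Lig1 (8.45 and 9.22 RPKM, 12.4 and 11.6, 0.41) were picked, with values known, among the genes that hold the E2F letters (chr8:75109359-75109558 and chr7:13278676-13278875, plus strand).
Aurka: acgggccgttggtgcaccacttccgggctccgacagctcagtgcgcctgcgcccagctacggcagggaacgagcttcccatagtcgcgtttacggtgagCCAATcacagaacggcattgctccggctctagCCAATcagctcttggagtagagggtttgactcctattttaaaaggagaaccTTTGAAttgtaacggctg
Ccnb2: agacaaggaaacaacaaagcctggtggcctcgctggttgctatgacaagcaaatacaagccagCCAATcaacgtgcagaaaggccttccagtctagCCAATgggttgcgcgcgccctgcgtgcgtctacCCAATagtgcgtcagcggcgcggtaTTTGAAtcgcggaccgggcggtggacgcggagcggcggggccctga
Mcm5: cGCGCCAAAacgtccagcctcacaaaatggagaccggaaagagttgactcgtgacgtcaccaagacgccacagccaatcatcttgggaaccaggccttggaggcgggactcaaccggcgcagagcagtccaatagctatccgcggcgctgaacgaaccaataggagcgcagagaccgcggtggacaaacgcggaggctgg
Lig1: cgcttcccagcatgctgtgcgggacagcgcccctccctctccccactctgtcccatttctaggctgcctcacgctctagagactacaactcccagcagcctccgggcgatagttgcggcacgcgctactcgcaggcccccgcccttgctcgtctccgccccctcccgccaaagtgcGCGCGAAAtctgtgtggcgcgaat

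Cholesterol synthesis genes rose in the largest share of any list that rose. Of 26 tested 21 rose, 0 fell and 5 did not pass (median 0.46), where 8.16% of all genes tested rose. The list's median over control was 0.506 and 0.394 in the CD133 knockdown libraries and 0.46 and 0.505 in the Glis3 knockdown libraries. Idi1, the isopentenyl diphosphate isomerase, stood at 15.4 and 19.3 RPKM in control and 32.8 and 29.1 in the CD133 knockdown (log2 fold change 0.80, SE 0.12, adjusted p = 0.017). Hmgcs1, the HMG-CoA synthase, went from 33.3 and 38.2 to 68.8 and 56.3 RPKM (log2 fold change 0.79, SE 0.11, adjusted p = 0.0151). Cyp51 (lanosterol demethylase) rose by 0.71, the methyl sterol oxidase Msmo1 by 0.63 and Fdps (farnesyl diphosphate synthase) by 0.59.

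In neighbouring lipid pathways the shares that rose lay near the 8.16% of all genes tested, at 10.5% in fatty acid synthesis and 6.25% in sterol efflux. In fatty acid synthesis 2 of 19 rose, the elongases Elovl6 at 0.82 and Elovl7 at 0.26, and among 16 genes of sterol efflux and oxysterol response Abca7, a lipid transporter, rose by 0.33 and Npc2, which carries cholesterol in lysosomes, fell by 0.32. In this efflux list 0 rose with median centring or quantile normalization, which gave 3 falls and 1. In cholesterol synthesis 16 genes rose without CD133 knockdown library 3 and 0 without library 1 or with either control left out, and the median was 0.32 with a pseudocount of 5. The sterol response element letters TCACNCCAC, searched on both strands, were in 1 of 18 cholesterol synthesis genes, 1.24% of all promoters and 1.44% of all genes, and CCAAT in 17 of 18. The promoter that holds the element is that of Hmgcs1 (chr13:119690201-119690400, plus strand), printed with the element in capitals.
Hmgcs1: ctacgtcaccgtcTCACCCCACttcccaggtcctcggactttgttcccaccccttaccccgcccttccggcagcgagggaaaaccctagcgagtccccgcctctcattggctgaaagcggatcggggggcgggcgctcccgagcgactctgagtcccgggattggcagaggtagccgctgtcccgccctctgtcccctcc

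Most ribosomal protein genes fell. Of 74 cytosolic ribosomal protein genes 63 fell, 0 rose and 11 did not pass, and 73 lay below 0 (median -0.37). Of all 10829 genes tested 3.64% fell and 4181 lay below 0. Their RPKM summed to 28632 and 30936 in the control libraries and to 22586 and 23705 in the CD133 knockdown, with no overlap. Rplp1, of the ribosomal stalk, stood at 1500.1 and 1618 RPKM in control and 1099 and 1188 in the knockdown (log2 fold change -0.45, SE 0.08, adjusted p = 0.0258). Rps27 fell by 0.49, Rplp2 by 0.46, Rps12 by 0.46 and Rps15a by 0.45.

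The scaling set the size of this fall but not its direction, with a median of -0.42 after median centring and -0.25 after quantile normalization, where 50 fell. Without CD133 knockdown library 3, 13 fell, and without library 1 or either control none passed singly. Mitochondrial ribosomal proteins and respiratory chain subunits lay near the median of all genes. Of 72 mitochondrial ribosomal genes 3 rose, Mrpl37 at 0.45, Mrpl42 at 0.37 and Mrpl49 at 0.23 (median 0.04), and of 74 oxidative phosphorylation genes 0 passed by limma and 7 had an unadjusted p under 0.05 (median 0.05), where 8.16% and 3.64% of all genes rose and fell. With quantile normalization 2 of the respiratory chain genes rose. Ribosomal protein genes have many processed copies in the genome, among which reads are hard to assign.

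**Figure D2:**
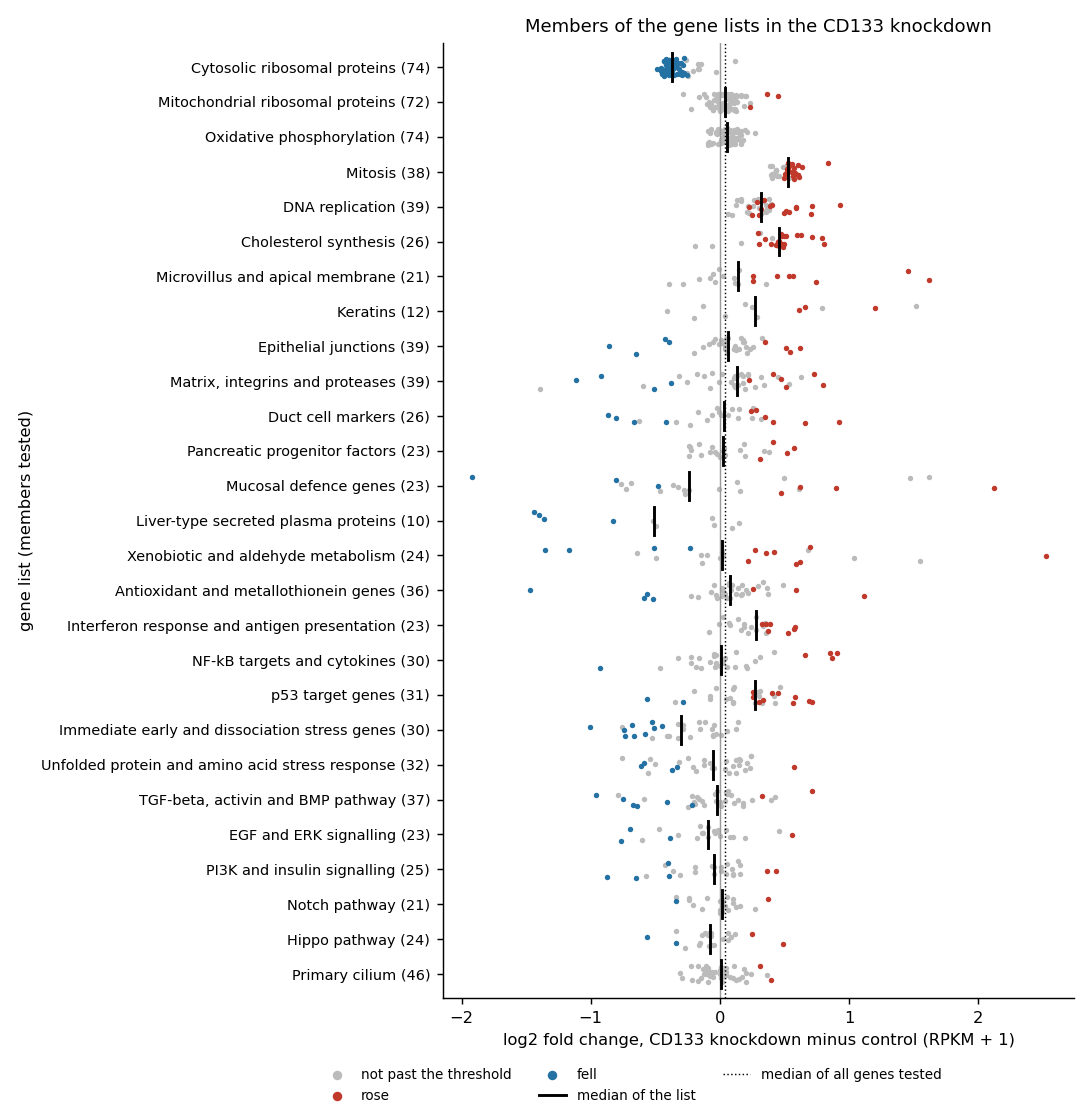
Log2 fold change (CD133 knockdown minus control, RPKM + 1) of each tested member of 27 gene lists, with members that rose in red, those that fell in blue and the others in grey. Black bars are list medians and the dotted line is the median of all genes tested, 0.04; the ribosomal list lies left of it at -0.37, and mitosis and cholesterol synthesis lie right of it at 0.53 and 0.46.

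Immediate early genes, which also respond to tissue handling, were lower. Of 30 tested 9 fell and none rose (median -0.30), where 3.64% of all genes tested fell and 8.16% rose. Fos stood at 786 and 715 RPKM in control and 428 and 512 in the CD133 knockdown (log2 fold change -0.68, SE 0.10, adjusted p = 0.0188). Socs3, the feedback inhibitor of cytokine signalling, went from 65.5 and 61.7 to 28.2 and 34.3 RPKM (-1.01). The transcription factors Klf2, Maff, Klf4 and Klf10 fell by 0.74, 0.73, 0.67 and 0.58. The control libraries differ in this list, with medians of 0.09 and -0.09 about their mean, and dropping the former moved the median of the list to -0.18, the latter to -0.50. Without CD133 knockdown library 3, 5 fell. How far handling of the colonies differed between libraries was not tested.

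**Figure D3:**
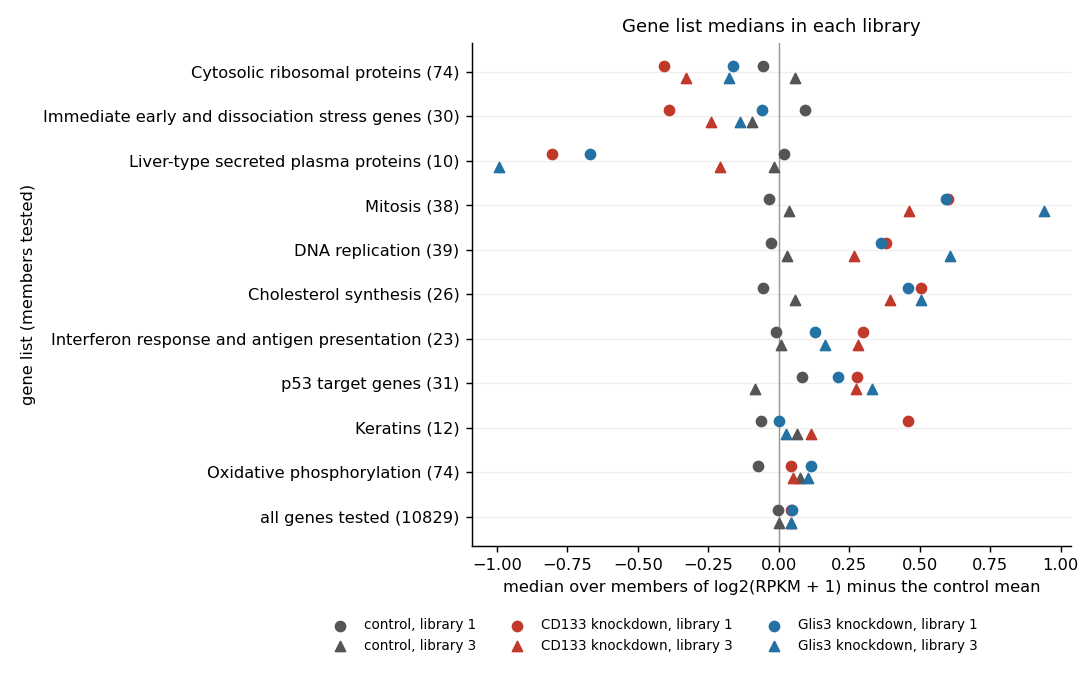
Median over the members of a list of log2(RPKM + 1) minus the mean of the controls, with a circle for library 1 and a triangle for library 3 of the control (grey), CD133 knockdown (red) and Glis3 knockdown (blue). The ribosomal medians are -0.41 and -0.33 in the CD133 knockdown and -0.16 and -0.18 in the Glis3 knockdown. The liver-type list is at -0.81 in CD133 knockdown library 1 but -0.21 in library 3, and at -0.67 and -0.99 in the Glis3 knockdown.

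In the EGF receptor and ERK pathway 3 of 23 genes fell, the ERK phosphatase Dusp5 by 0.77, the ligand Hbegf by 0.69 and the inhibitor Spry1 by 0.39, and the ligand Areg rose by 0.56 (median -0.09). Hbegf stood at 122 and 90.8 RPKM in control and 61.1 and 68.5 in the CD133 knockdown, and Areg at 23.4 and 24.9 against 41.5 and 31.3. Of 25 genes of PI3K and insulin signalling 4 fell and 2 rose. Rises were 4.35% of the EGF and 8% of the PI3K list, no more than the 8.16% of all genes tested. Falls were 13.0% and 16%, beside 3.64%. The kinase Sgk1 fell by 0.88, the insulin receptor substrate Irs2 by 0.65 and the regulatory subunit Pik3r1 by 0.39, whereas Pik3r3 rose by 0.44. With CD133 knockdown library 3 left out, 2 rose and 2 fell in the former list and 0 rose and 3 fell in the latter.

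Wnt ligand genes did not pass in either direction. Of 8 tested, 0 rose and 0 fell by limma, and 2 had an unadjusted p under 0.05 (median 0.03). Over all genes tested 8.16% rose and 3.64% fell. Wnt7b, the most abundant ligand, stood at 78.1 and 82.8 RPKM in control and 90.6 and 83.9 in the CD133 knockdown, above both controls but by little (log2 fold change 0.12, interval -0.04 to 0.27). Wnt7a stood at 24.7 and 26.9 against 23.4 and 25.01 RPKM (-0.09, interval -0.41 to 0.23), Wnt4 at 18.5 and 19.2 against 21.1 and 18.2 (0.05) and Wnt10a at 7.28 and 7.11 against 9.55 and 7.28 (0.19). The lowest were Wnt5b, at 16.7 and 14.1 RPKM against 7.27 and 12.3 (-0.64, interval -1.13 to -0.15, adjusted p = 0.0913), and Wnt16, at 2.71 and 2.04 against 0.85 and 1.53 (-0.63, adjusted p = 0.0586). Wnt5b and Wnt16 lay below both controls in each knockdown library, and 2 ligands fell without CD133 knockdown library 3. The ligands' median was -0.02 with median centring, where 1 fell, and -0.04 with quantile normalization.

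Of 15 receptors and coreceptors Lrp5 rose by 0.30 and 2 fell, Ptk7 (a pseudokinase coreceptor) by 0.29 and the receptor Fzd5 by 0.27. Shares over all genes tested were 8.16% rising and 3.64% falling. The receptor Lgr5, which binds R-spondins and marks stem cells in several epithelia, stood at 9.90 and 9.26 RPKM against 8.36 and 7.09 (-0.28, adjusted p = 0.154). Among 8 genes of ligand secretion and outer regulation 3 rose. Notum, which inactivates Wnt ligands by removing their lipid, stood at 11.6 and 12.8 RPKM in control and 31.9 and 18.98 in the CD133 knockdown (log2 fold change 0.96, SE 0.22, adjusted p = 0.039). Porcn, which attaches that lipid, went from 12.9 and 13.7 to 17.6 and 20.3 RPKM (0.48), and Rnf43, the ligase that removes Frizzled receptors, from 21.2 and 20.6 to 30.6 and 26.4 (0.43). The fold change of Notum was 0.60 without knockdown library 1, and among the receptors 0 rose and 4 fell with median centring.

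Of 20 Wnt target genes tested, a list that shares Notum and Rnf43 with the one before, 4 rose and 2 fell (median 0.06). Rises and falls were 20% and 10% of this list, beside 8.16% and 3.64% of all genes tested. Axin2, the scaffold of the beta-catenin destruction complex and a widely used readout, stood at 18.98 and 21.1 RPKM in control and 33.7 and 25.9 in the knockdown (log2 fold change 0.54, SE 0.12, adjusted p = 0.0346). Sox9, a progenitor and duct transcription factor, went from 33.7 and 31.4 to 43.2 and 43.8 RPKM (0.41, adjusted p = 0.0151). The ligand Bmp4 fell by 0.64 and the transcription factor Sox4 by 0.26. Of 27 intracellular components 1 rose, the adaptor Dvl1 at 0.44, and Ctnnb1, which encodes beta-catenin, stood at 586 and 613 RPKM against 573 and 557 (log2 fold change -0.09, interval -0.29 to 0.11). None of the Wnt calls held without control library 1 or 3 or CD133 knockdown library 1, and without library 3 no receptor or component passed, 2 outer regulators rose, 3 targets rose and 1 fell. With median centring or quantile normalization no component passed.

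**Figure D4:**
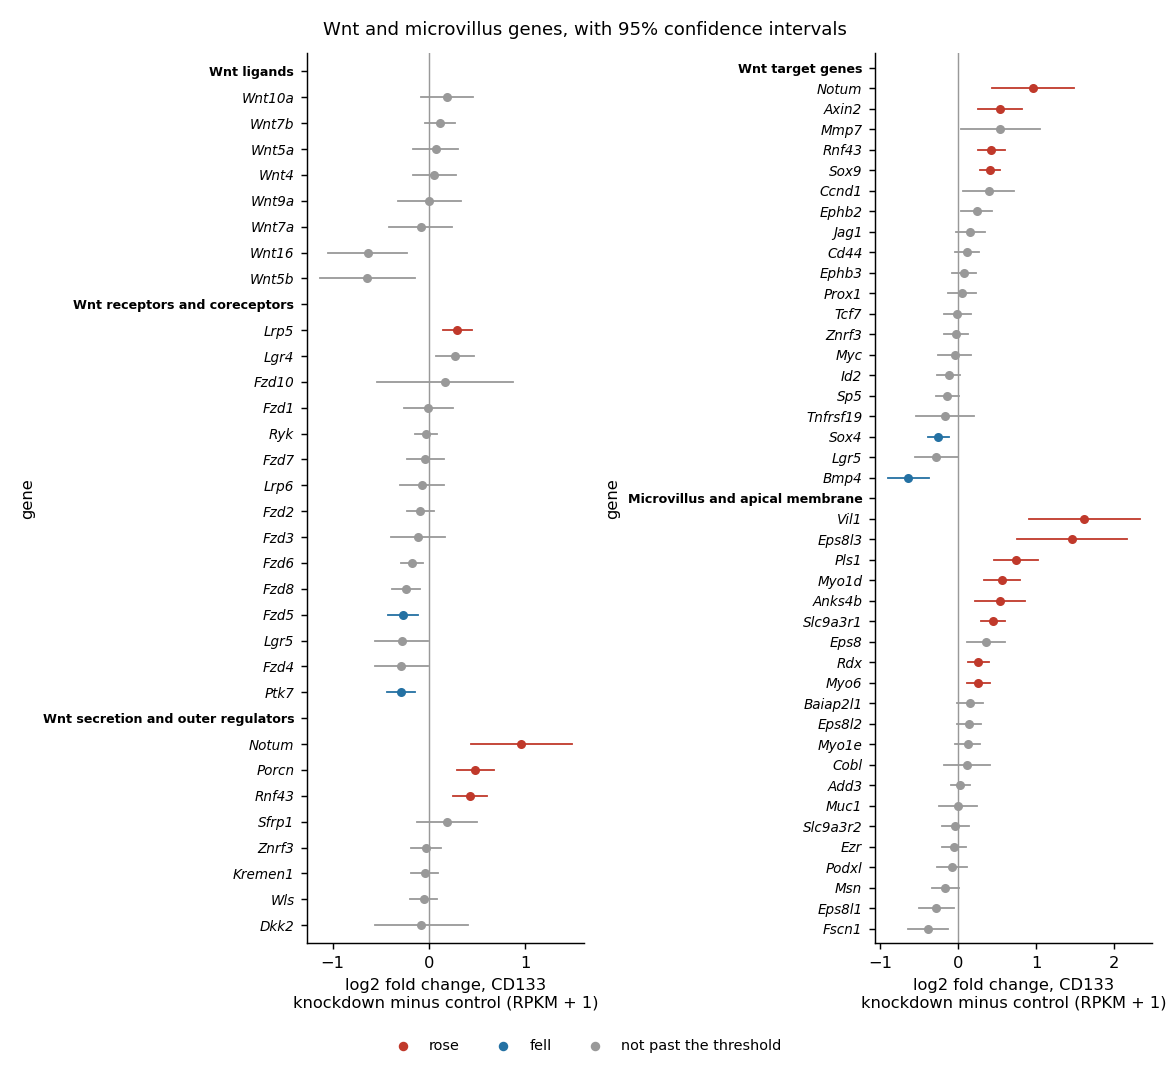
Log2 fold change (CD133 knockdown minus control, RPKM + 1) with its 95% confidence interval for every tested Wnt ligand, receptor, outer regulator and target and every tested microvillus gene; red rose, blue fell and grey did not pass. Every ligand is grey, Notum leads the Wnt genes at 0.96, and Vil1 and Eps8l3 lead the microvillus genes at 1.62 and 1.46.

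Genes of the microvillus, the structure in which CD133 protein gathers, changed in part. Of 21 tested 8 rose and 0 fell (median 0.14), against 8.16% of all genes. The shift was not particular to the CD133 knockdown. The list's median over control was 0.116 and 0.158 in its libraries and 0.148 and 0.098 in the Glis3 knockdown libraries. In the direct comparison of the knockdowns 1 of the 21, Vil1, was higher in the CD133 knockdown and 0 were lower. Beside Vil1 and Eps8l3, Pls1, a plastin that bundles actin, stood at 17.8 and 21.4 RPKM in control and 36.7 and 30.4 in the CD133 knockdown (log2 fold change 0.75, SE 0.12, adjusted p = 0.0191). The motor Myo1d rose by 0.57, the scaffold of microvillus tips Anks4b by 0.54 and Slc9a3r1, which ties membrane proteins to ezrin, by 0.45. Slc9a3r1 was the most abundant of these, at 62.4 and 65.8 RPKM against 92.3 and 83.1. Median centring and quantile normalization each gave 5 rises and 1 fall. There were 5 rises without CD133 knockdown library 3 and 0 without library 1 or with either control left out.

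Duct markers went in both directions, with 6 of 26 up and 4 down (median 0.03). Over all genes tested 8.16% rose and 3.64% fell. Car2, the carbonic anhydrase of bicarbonate secretion, stood at 137 and 164 RPKM in control and 303 and 269 in the CD133 knockdown (log2 fold change 0.93, SE 0.12, adjusted p = 0.0138). Krt19 went from 432 and 474 to 825 and 619.5 RPKM (0.66) and Cdh1 (E-cadherin) rose by 0.35. Spp1 (osteopontin), the most abundant of the list, went from 6490.0 and 6733 to 3127 and 4202 RPKM (-0.87, or -0.37 with quantile normalization). Dcdc2a, a doublecortin family protein, fell by 0.80, the water channel Aqp5 by 0.66 and the RNA-binding protein Bicc1 by 0.42. Epcam did not pass (0.06, interval -0.17 to 0.30). Leaving out CD133 knockdown library 3, 2 markers rose and 2 fell, and with median centring 3 rose.

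Of 23 pancreatic progenitor factors 4 rose and none fell, Foxa1 by 0.57, Nkx6-1 by 0.52, Sox9 by 0.41 and Hnf4a by 0.31, all transcription factors. For this and the next lists, 8.16% of all genes tested rose and 3.64% fell. Hnf4a stood at 30.6 and 29.2 RPKM in control and 38.04 and 36.5 in the CD133 knockdown. Pdx1 stood at 10.2 and 10.97 against 12.4 and 12.2 RPKM, above both controls, and did not pass (0.20, adjusted p = 0.0685). Median centring gave 4 rises and 2 falls in this list. Of 7 endocrine markers tested Nkx6-1 and Cpe, the carboxypeptidase of prohormone processing, rose, Cpe from 20.6 and 23.8 to 46.3 and 42.6 RPKM (0.97). Of 12 keratins 3 rose, Krt6a, Krt19 and Krt8, the last from 663 and 793 to 1273 and 968 RPKM (0.61). No progenitor factor passed without CD133 knockdown library 3, while 1 endocrine marker rose and 3 keratins rose.

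Of 14 gastric and mucous markers tested 1 fell and 0 rose, the one being Aqp5, which is also among the duct markers. Over all genes tested 3.64% fell and 8.16% rose. Among markers of acinar, mesenchymal, endothelial, immune, glial and neural cells 1 passed. Reg1, an acinar lectin, stood at 197 and 304 RPKM in control and 388 and 382 in the CD133 knockdown, higher in both libraries but with controls that differed widely (0.65, adjusted p = 0.268). That marker, the mesenchymal gene Fn1 (fibronectin), which epithelia in culture also make, fell by 0.37. The endothelial gene Esam stood at 1.56 and 1.42 against 1.37 and 1.40 RPKM, the immune genes Cd68 and Aif1 at 5.23 and 5.83 against 6.39 and 5.12 and 1.29 and 0.89 against 1.06 and 1.98. The glial and neural genes Mbp, Tubb3, Ncam1 and Cnp had log2 fold changes of -0.18, -0.11, -0.09 and 0.05, and none passed. In bulk RNA, fewer cells of a type and less RNA per cell cannot be told apart. The part of other cell types in the results above was not tested.

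Matrix, junction and defence genes were mixed. Of 39 matrix, integrin and protease genes 6 rose and 4 fell: the laminin chain Lama3 rose by 0.80, the collagen Col18a1 by 0.73 and the integrin Itgb6 by 0.51, whereas the collagenase Mmp13 fell by 1.11, the protease inhibitor Timp3 by 0.92 and the integrin Itgb5 by 0.51. Timp3 stood at 112 and 94.4 RPKM in control and 45.6 and 63.5 in the CD133 knockdown. Of 39 junction genes 4 rose and 4 fell. Rises were 15.4% of the matrix and 10.3% of the junction list, beside 8.16% of all genes tested. Falls were 10.3% of each list, beside 3.64%. Dsc2 (a desmosomal cadherin), Cldn6 (a claudin) and the tight junction scaffold Tjp3 rose by 0.62, 0.54 and 0.51, and Cldn8, the connexin Gjb2 and the nectin Nectin4 fell by 0.86, 0.65 and 0.42. Among junction genes 2 rose and 1 fell without CD133 knockdown library 3.

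Of 23 mucosal defence genes 4 rose and 3 fell (17.4% and 13.0%, beside 8.16% and 3.64% of all genes tested). Beside Duox2 and Pglyrp3, Pglyrp1 (a peptidoglycan recognition protein) stood at 20.2 and 27.7 RPKM in control and 49.9 and 40.7 in the knockdown (0.90), and Nod2 (an intracellular sensor of peptidoglycan) rose by 0.62. Wfdc2 and Wfdc15b, secreted proteins with whey acidic domains, fell by 0.81 and 0.48. Of 30 NF-kB targets and cytokines 4 rose and 1 fell (13.3% and 3.33%), the falls being near the share of all genes. The chemokine Ccl20 went from 18.5 and 21.6 to 37.3 and 36.4 RPKM (log2 fold change 0.85, SE 0.08, adjusted p = 0.00936). Tnfaip2 rose by 0.91, Tnf by 0.87 and the chemokine Ccl2 by 0.66, and the chemokine Cxcl12 fell by 0.93.

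Interferon response and antigen presentation genes rose in part. Of 23 tested 7 rose and 0 fell (median 0.28), where 8.16% of all genes tested rose and 3.64% fell. The peptide transporters Tap1 and Tap2 rose by 0.58 and 0.36, the transcription factor Stat2 by 0.57, the class I gene H2-T23 by 0.53 and Ifi35 by 0.39. Most were low, with Stat2 at 2.71 and 2.35 RPKM in control and 3.76 and 4.79 in the CD133 knockdown. With quantile normalization 4 rose, without CD133 knockdown library 3 it was 2, and the median was 0.15 with a pseudocount of 5.

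Of 31 genes listed as p53 targets, 10 rose and 2 fell (median 0.27), where 8.16% and 3.64% of all genes tested did. The receptor Eda2r rose by 0.71, Ckap2 by 0.69, Bbc3, an inducer of apoptosis, by 0.58, Phlda3, an Akt inhibitor, by 0.57 and the desmosomal protein Perp by 0.45, and the growth arrest gene Gadd45a fell by 0.56. Phlda3 stood at 47.8 and 46.4 RPKM in control and 72.2 and 68.5 in the knockdown. Ckap2 is also a spindle protein of dividing cells. Median centring gave 5 rises and the absence of CD133 knockdown library 3 gave 2, and the median was 0.15 without control library 3.

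Of 37 TGF-beta family genes 6 fell and 2 rose (median -0.02), where 3.64% and 8.16% of all genes tested did. Inhbb and Inhba encode the subunits of activin, a form of which is in the culture medium. Inhbb stood at 15.8 and 13.5 RPKM in control and 5.68 and 8.61 in the CD133 knockdown (log2 fold change -0.96, SE 0.18, adjusted p = 0.0253), and Inhba at 24.2 and 19.97 against 12.3 and 13.1 (-0.75). The receptor Tgfbr1 went from 29.8 and 30.8 to 17.8 and 19.4 RPKM (-0.68), the ligand Bmp4 fell by 0.64 and the repressor Skil by 0.41. Id3, a target of BMP signalling that inhibits helix-loop-helix factors, rose from 4.03 and 4.67 to 8.15 and 7.40 RPKM (0.72). With median centring 10 of the list fell and 1 rose.

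Xenobiotic and redox genes changed in both directions. Of 24 genes of xenobiotic and aldehyde metabolism 8 rose and 4 fell, where 8.16% and 3.64% of all genes tested did. Beside Ces1g, Fmo2 and Cyp4b1, Cyp1b1 stood at 126 and 127 RPKM in control and 199 and 184 in the CD133 knockdown (0.59), while the aldo-keto reductases Akr1c13 and Akr1c12 rose by 0.70 and 0.62. Of 36 antioxidant genes 3 rose and 4 fell. The metallothionein Mt2 rose by 1.12 and the cysteine dioxygenase Cdo1 by 0.59. Beside Gpx3, the cystine transporter Slc7a11 fell by 0.59, the ferritin light chain Ftl1 by 0.57 and heme oxygenase Hmox1 by 0.52. With CD133 knockdown library 3 left out, 4 xenobiotic genes rose and 3 fell, and 4 antioxidant genes rose and 2 fell.

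Counts in the remaining pathways stand beside the 8.16% of all genes tested that rose and the 3.64% that fell. Of 32 glycolysis and hypoxia genes 3 rose and 1 fell. In the unfolded protein and amino acid stress response 1 of 32 rose, Herpud1 at 0.57, and 4 fell, the phosphatase subunit Ppp1r15a by 0.61, Slc7a11, and the amino acid synthesis enzymes Asns by 0.37 and Psat1 by 0.33. In the Notch pathway Nrarp, a feedback gene, rose by 0.38 and the coactivator Maml1 fell by 0.34, of 21. In the Hippo pathway Ankrd1 and Tead4 rose by 0.49 and 0.25 and Amotl2 and Wwc1 fell by 0.56 and 0.34, of 24. Of 46 primary cilium genes Ift27 and Tulp3 rose by 0.40 and 0.31, and of 9 motile cilium genes Cfap43 and Cfap126 fell by 0.48 and 0.46. Of 47 autophagy and lysosome genes Ctsb, a cathepsin, rose by 0.47 and Npc2 and the proton pump subunit Atp6v0d1 fell by 0.32 and 0.32. Without CD133 knockdown library 3, 3 stress response genes, 1 Hippo gene and 1 motile cilium gene fell, and no Notch, primary cilium or autophagy gene passed.

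Where the CD133 knockdown stands apart from the Glis3 knockdown was tested directly, since both comparisons with control share the control libraries. Both of these groups carried a pool of 5 shRNA clones. At the same threshold 266 genes were higher (2.46% of those tested) and 174 lower (1.61%) in the CD133 than in the Glis3 knockdown. Of these 440 genes, 169 (of the 1278, or 11.8% of genes tested, that changed against control) were also past the threshold against control: 95 rose and lay above the Glis3 knockdown, 56 fell and lay below it, and 9 and 9 changed against control but lay on the control side of the Glis3 knockdown. The counts moved with single libraries, from 16 and 9 without CD133 knockdown library 1 to 470 and 273 without Glis3 knockdown library 1. The comparisons with control and with the Glis3 knockdown share the 2 CD133 knockdown libraries. Part of the overlap of 169 genes, and of its shared direction, is therefore built in, and no conclusion is drawn from it. The genes named next are the 20 with the largest direct difference among the 169, a choice made after their values were seen.

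Vil1 and Ctla2a were higher in the CD133 knockdown than in both other groups. Vil1 stood at 9.87 and 5.81 RPKM in the Glis3 knockdown, against 31.03 and 20.1 in the CD133 knockdown (difference 1.59 on the log2 scale, adjusted p = 0.0417). Ctla2a stood at 3.53 and 2.38 against 16.7 and 10.8 RPKM (1.89, adjusted p = 0.0142). Krt6a, C4bp and Tnfaip2 were higher than in the Glis3 knockdown by 1.47, 1.22 and 1.21. Cdh17, a cadherin of intestinal epithelium, stood at 0.89 and 1.00 RPKM in control, 2.51 and 2.15 in the CD133 knockdown and 0.67 and 0.28 in the Glis3 knockdown (1.19, adjusted p = 0.0147).

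Ccl2, Gxylt2, Otop3 and Sema3e rose in the CD133 knockdown and stood under both controls in the Glis3 knockdown. Ccl2 stood at 13.5 and 17.8 RPKM in control, 24.2 and 25.8 in the CD133 knockdown and 7.18 and 6.20 in the Glis3 knockdown (1.76, adjusted p = 0.00474), and the 3 groups do not overlap. The xylosyltransferase Gxylt2, the proton channel Otop3 and the guidance cue Sema3e were higher than in the Glis3 knockdown by 1.76, 1.17 and 1.05. The collagenase Mmp13 stood lower in both knockdowns than in control, at 4.50 and 4.23 RPKM in control, 1.44 and 1.52 in the CD133 knockdown and 0.30 and 0.14 in the Glis3 knockdown (1.03).

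Lower in the CD133 knockdown were Mup20 and Ttr, which stood above both controls in the Glis3 knockdown. Mup20 stood at 76.2 and 54.1 RPKM in the Glis3 knockdown against 16.6 and 14.6 (-1.98, adjusted p = 0.00522), and Ttr at 27.6 and 30.4 against 10.3 and 12.1 (-1.30, adjusted p = 0.00474). Fmo2, Tmtc1, the growth factor Fgf9, the sphingosine phosphate receptor S1pr1 and Lims2 were lower by 1.92, 1.22, 1.15, 1.32 and 1.19 as log2 differences. S1pr1 stood at 5.53 and 5.02 RPKM in control, 1.35 and 2.49 in the CD133 knockdown and 7.07 and 5.33 in the Glis3 knockdown. Cdo1, at 7.86 and 9.57 RPKM in the CD133 knockdown, stood at 32.9 and 35.98 in the Glis3 knockdown (-1.87, adjusted p = 0.00338), and Prom1 completes the 20 (-1.19).

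**Figure D5:**
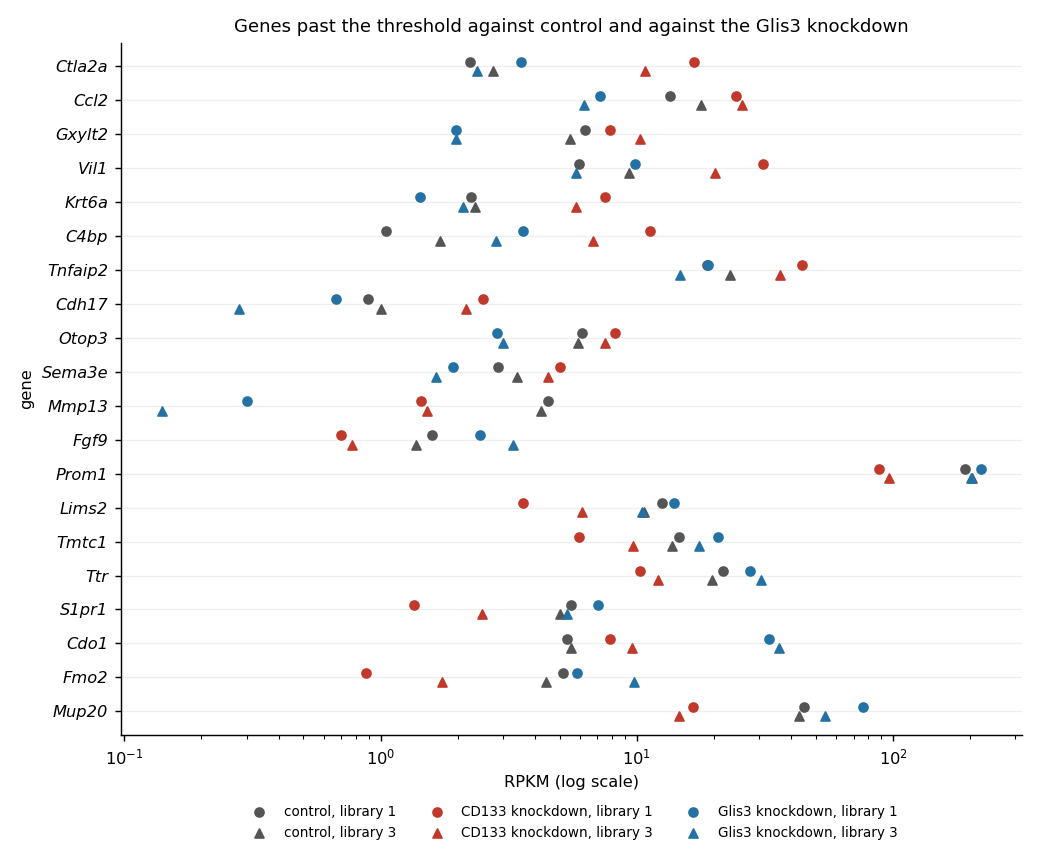
RPKM on a log axis of the 20 genes with the largest difference between the CD133 and Glis3 knockdowns among genes past the threshold against both control and the Glis3 knockdown, in all 6 libraries (circle for library 1, triangle for library 3). Genes are ordered from the largest positive difference, Ctla2a, to the largest negative, Mup20; they were chosen for that difference.

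The lists were set against the Glis3 knockdown by the same direct test. In that test 2.46% of all genes tested were higher and 1.61% lower in the CD133 knockdown. No member of the mitosis, DNA replication, ribosomal, p53, PI3K or respiratory chain lists differed between the knockdowns, which does not show that they are alike: mitosis genes lay lower in the CD133 knockdown by a median of 0.25 and ribosomal genes by a median of 0.19 on the log2 scale. The mitosis median over control was 0.60 and 0.94 in the Glis3 knockdown libraries and 0.60 and 0.46 in the CD133 knockdown. Of the cholesterol synthesis genes 2 were lower in the CD133 than in the Glis3 knockdown and 0 were higher, with a median difference of -0.04. Of the Wnt ligands 2 were higher in the CD133 knockdown, Wnt10a, at 2.65 and 2.43 RPKM in the Glis3 knockdown (1.40, adjusted p = 0.00617), and Wnt7b, at 68.1 and 64.3 (0.39, adjusted p = 0.031). Sox9 was the single Wnt target that differed (0.30, adjusted p = 0.0419), and of 39 matrix genes 8 were higher and 1 lower. Without Glis3 knockdown library 3 these direct tests gave 69 genes higher and 41 lower over all genes.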

How the data were processed

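Poly(A) RNA of 3-week colonies was sequenced in 6 libraries, 2 per group, with a stranded Kapa kit, per the labels' protocols. The authors deposited one table of RPKM per gene, made, per the submitters' processing notes, with TopHat2 and HTSeq on mm10 after bcl2fastq (version 2.18.0.12). The annotation is not stated there, and neither is the strand setting of the counting. Of 11164 genes, 11000 (98.5%) matched GENCODE M21 (GRCm38), the source of coordinates. No gene in the table had a maximum under 1.00 RPKM. Counts were not used. Depth was estimated from the steps between the RPKM values of low genes. At the depth kept, 56.8 to 62.6% of these values came out whole within 0.15 of a read. Chance spacing would give 30% at a fixed depth. The depth with the highest share was kept, so the best share would exceed 30% by chance as well. No count test was run and the depths are approximate.

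Values were taken as log2(RPKM + 1), without rescaling. The filter was a mean of 1 RPKM or more. The model was limma's (version 3.58.1, R 4.3.3), with a variance trend, as 3 group means over 6 libraries (3 residual and 3.69 prior degrees of freedom). Tests are two-sided, with Benjamini-Hochberg adjustment over 10829 genes and a threshold of 0.05. The fit code was also run on simulated data, whose outcome is not reported here, and no result above rests on it. The members and gene lists were chosen with earlier results of these data known. Named were Prom1 and Glis3, the 15 largest rises and 15 largest falls past the threshold whose groups do not overlap, in each of 46 lists up to 6 members past the threshold by size, and any tested Wnt gene or marker of another cell type. Predicted loci were counted, not named, and some genes are counted but not reported here by name. Mki67, Mcm5, Lig1, Pdx1, the genes compared with the Glis3 knockdown and the RNA processing genes of the closing section fall outside that rule and were chosen after their values were seen. Alternatives were pseudocounts of 0.1 and 5, other filters, median centring, quantile normalization, 4 libraries, no trend, a replicate block and leaving out each library.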

Additional observations from a re-analysis of the deposited data

How the results depend on the processing

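Against 884 rises and 394 falls in the CD133 knockdown, median centring gave 559 and 612 and quantile normalization 547 rises. The median log2 fold change of all genes went from 0.04 to -0.01 with the latter 2 scalings. Leaving out single libraries gave 0 to 1157 rises and 0 to 500 falls, and, against the Glis3 knockdown, 16 to 470 genes higher and 9 to 273 lower, beside 266 and 174. A replicate block, using the number in the titles, gave 231 rises and 104 falls, and 51 higher and 28 lower than in the Glis3 knockdown. The labels do not say that this number marks a batch or day, and deviations of same-numbered libraries correlated at -0.43 between control and CD133 knockdown, -0.37 between control and Glis3 knockdown and 0.03 between the knockdowns. Of the 15 largest rises and 15 largest falls, 11 and 12 passed with the block. With it 5 mitosis, 4 replication and 9 cholesterol synthesis genes rose and 14 cytosolic ribosomal genes fell. Of the interferon and p53 lists 0 and 1 rose. The other pseudocounts, the filters and the fit without a trend kept each of these 4 counts within 1.5 times.

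Prom1 lay between -1.16 and -1.03 with any library left out, and missed the threshold without control library 1 (-1.14) or control library 3 (-1.05). Glis3 lay between -0.087 and 0.014, the latter without control library 1. Other genes that changed sign had not passed in either setting. With single libraries left out these were Wnt4 (-0.047 to 0.155), Epcam (-0.036 to 0.16), Cd68 (-0.092 to 0.18) and Aif1 (-0.014 to 0.518). Cd68 was at -0.009 and Cnp at -0.003 with median centring, and Cd68 was at -0.015 and Ctnnb1 at 0.118 with quantile normalization. The cause of these changes was not tested. With a control library left out the lone control is assumed to vary like the other groups. With 2 libraries per group, genes below about 1 RPKM and small fold changes could not be judged at this depth.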

Other observations

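Values of 5 RNA processing genes, picked after they were seen and from no list, are given as a description. Rsrp1, an arginine and serine rich protein, stood at 44.3 and 33.5 RPKM in control and 76.02 and 88.4 in the knockdown (log2 fold change 1.07, adjusted p = 0.0193). Leng8 went from 21.1 and 11.3 to 30.8 and 37.9 RPKM (1.09, adjusted p = 0.0498), the cyclin Ccnl2 from 18.7 and 14.3 to 25.8 and 30.1 (0.73, adjusted p = 0.0315), and the kinases of splicing factors Clk1 and Clk4 from 10.2 and 9.01 to 14.7 and 16.3 (0.64, adjusted p = 0.0177) and from 5.02 and 4.67 to 6.80 and 7.69 (0.49, adjusted p = 0.0212). In the Glis3 knockdown Rsrp1 stood at 76.05 and 57.3 RPKM and Clk1 at 13.7 and 11.6. Transcripts of these genes are known to be kept in part in the nucleus with introns retained, and the share of such RNA in each library was not tested. Exons of Leng8 overlap those of Leng9 on the opposite strand.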
